A study of Gallus gallus with 8 samples.

Results

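The genes of glycolysis, lactate handling and glycogen turnover were followed in engineered chick skeletal muscle tissues. The set was chosen by name, step by step along the pathway, and it was drawn up with earlier results of the same week comparison known. No threshold on a measured value entered it, and the counts of changed genes below are a description rather than independent evidence. Of the 37 genes named, 30 were found by symbol in a count table of 17775 genes. *PGK1*, *PKM* and *SLC2A3* were matched only through RefSeq synonyms (*PGK2*, *PKLR* and *SLC2A14*), so their values are given beside the set and are not counted in it. *ALDOA*, *ENO3*, *PFKFB1* and *PFKFB4* are not analysed here.

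RNA came from 3 tissues collected at week 3 (post differentiation day 21) and 5 tissues collected at week 1 (post differentiation day 7). In both groups, myoblasts isolated from the thighs of E10 chick embryos and enriched by pre-plating had been grown to confluence on gelatin-transglutaminase hydrogels and then differentiated in medium with less serum, without motor neurons. The number of embryos or harvests behind the tissues is not given in the sources used here, so an effect of harvest and an effect of the week cannot be told apart, and p-values measure only the spread between these tissues. Tissues are named by week and replicate, 3-1 to 3-3 and 1-1 to 1-5. Values per tissue are in FPKM-UQ as the authors deposited them, which here is the estimated count after adding 1, scaled by a single factor for the tissue. Gene length does not enter these values, so levels are compared between tissues and not between genes.

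Glycolysis converts glucose to pyruvate in the cytosol. Hexokinase, phosphofructokinase and pyruvate kinase catalyse its essentially irreversible steps, and lactate dehydrogenase exchanges pyruvate and lactate. Skeletal muscle also stores glucose as glycogen, which glycogen phosphorylase releases for contraction, and pyruvate dehydrogenase kinases limit the entry of pyruvate into mitochondria. Many of these enzymes exist as paralogs that differ between slow, fast, embryonic and non-muscle cells.

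The total estimated count was 15447904 to 18902561 in week 3 tissues and 14368710 to 16545497 in week 1 tissues. Tissue 1-1 stood apart from its group, with correlations of 0.976 to 0.981 with the other week 1 tissues (log2 scale, across 13394 genes), while all other pairs within a week lay between 0.992 and 0.995. Members whose call changed without tissue 1-1 are therefore given with and without it. So are members called lower for which tissue 1-1 lay within or below the range of week 3. Gene lists are given by their counts or shares with and without it. Tissue 1-1 was singled out from these same data, and the spread of week 1 is smaller without it. Adjusted p-values from fits without tissue 1-1 are therefore a description and not independent evidence. Of 12 myotube markers, 8 were listed and all were detected in every tissue, and *DES*, which encodes the muscle intermediate filament desmin, was at 4363.8 to 4546.3 FPKM-UQ at week 3 and 3932.2 to 4649.4 at week 1. Of these 8, *ACTA1* and *MYOD1* were lower at week 3 (edgeR), *ACTA1* with tissue 1-1 within the range of week 3 and in only 4 of the 8 fits that left out 1 tissue. As shares, 25.0% were lower and 0.0% higher, against 12.0% and 11.5% of all tested genes. Without tissue 1-1, *TNNC2* and *TNNT3* were also called lower and *MYOG* higher. The summed myotube markers were at 18774.8 to 19285.6 FPKM-UQ at week 3 and 18904.8 to 26797.5 at week 1, where the lowest value was that of tissue 1-1. In bulk RNA, fewer cells of a type and less RNA per cell cannot be told apart.

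The first question was which steps of the pathway differed in expression between the 2 ages. Most genes that were called were lower at week 3. Among 29 members tested with edgeR's quasi-likelihood test, 16 were lower and 4 were higher at week 3 at an adjusted p below 0.05 (Benjamini-Hochberg over 14311 genes), and 9 were not called. This corresponds to 55.2% of the members lower and 13.8% higher, where 12.0% of all tested genes were called lower and 11.5% higher. The median log2 fold change (week 3 over week 1) was −0.39 over the members and −0.01 over all tested genes. With a fold change above 1.5 in addition, 11 members were lower and 0 were higher, against 5.89% and 5.61% of all tested genes. In FPKM-UQ, 12 members had all week 3 tissues below all week 1 tissues and 4 had them all above, against 13.6% and 16.2% of all tested genes. Of the 30 listed members, 29 passed the filter on low counts, and each of these had at least 123 counts in every tissue.

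**Figure D1:**
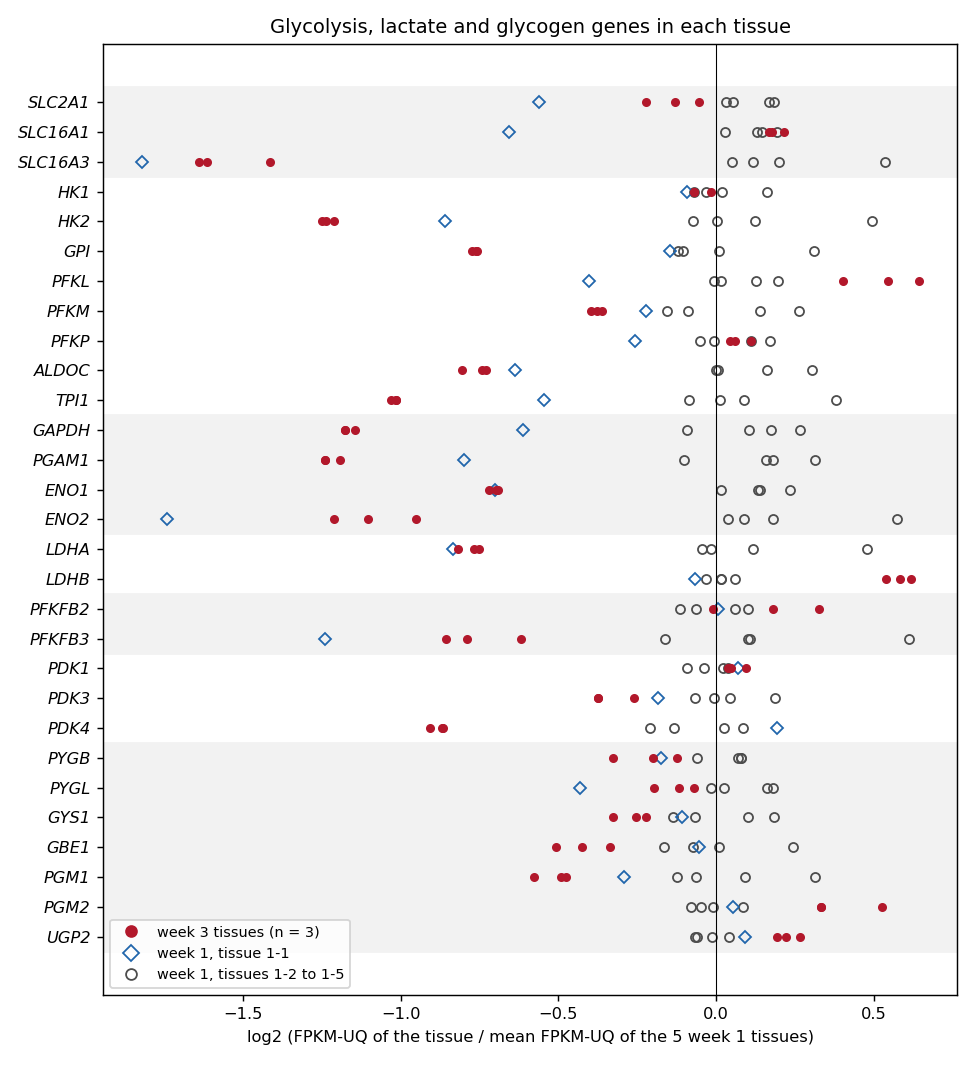
FPKM-UQ of each of the 29 tested genes in each tissue, as the log2 ratio to the mean of the 5 week 1 tissues (x axis), grouped by pathway step in shaded bands (y axis), with filled circles for the 3 week 3 tissues, a diamond for tissue 1-1 and open circles for tissues 1-2 to 1-5. Week 3 tissues lie close together and left of tissues 1-2 to 1-5 for most glycolytic genes, and tissue 1-1 lies between them or beside week 3 for several genes.

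As a share of all counts, the 30 listed members took 1.94% to 1.96% of the library at week 3, against 2.52% to 4.19% at week 1. *GAPDH* alone held 0.896% to 0.910% at week 3 and 1.34% to 2.27% at week 1. In tissues 1-2 to 1-5, *GAPDH* had the highest count of all genes, and in tissue 1-1 and all week 3 tissues it ranked number 3. Without *GAPDH*, the members held 1.05% in each tissue at week 3 and 1.18% to 1.92% at week 1, and the weeks still did not overlap.

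Among the carriers, the lactate exporter fell and the glucose importer was not called. *SLC16A3* encodes MCT4, the monocarboxylate carrier known for lactate export from glycolytic fibers. *SLC16A3* was at 21.3, 21.7 and 24.9 FPKM-UQ in tissues 3-1 to 3-3, against 18.8, 96.3, 68.7, 72.0 and 76.3 in tissues 1-1 to 1-5. The week 3 tissues were below tissues 1-2 to 1-5 but not below tissue 1-1, so the groups overlapped. Its log2 fold change was the lowest of all members, −1.57 (edgeR, standard error 0.38, adjusted p = 0.011), and without tissue 1-1 it was −1.80 (edgeR, adjusted p = 1.4e-12). Without tissue 3-1 or 3-2, the adjusted p of *SLC16A3* was 0.052 and 0.051 (edgeR). The other lactate carrier was not called. *SLC16A1* encodes MCT1, a carrier of lactate found in many cell types, and averaged 108.8 ± 1.94 FPKM-UQ (SD) in the 3 week 3 tissues and 95.6 ± 20.0 in the 5 week 1 tissues (log2 fold change 0.17, standard error 0.15, edgeR, adjusted p = 0.44). *SLC2A1*, the gene of the widespread glucose carrier GLUT1, averaged 79.1 ± 4.60 FPKM-UQ (SD) in the 3 week 3 tissues and 86.7 ± 16.2 in the 5 week 1 tissues (log2 fold change −0.15, standard error 0.14, edgeR, adjusted p = 0.48). For both genes tissue 1-1 was the lowest tissue of either week, and without it *SLC2A1* had a log2 fold change of −0.26 (edgeR, adjusted p = 0.0016) and *SLC16A1* of 0.05 (edgeR, adjusted p = 0.51). *SLC2A14*, which carries the synonym *SLC2A3* (GLUT3), averaged 89.7 ± 4.25 FPKM-UQ (SD) in the 3 week 3 tissues and 114.9 ± 21.1 in the 5 week 1 tissues (log2 fold change −0.37, standard error 0.13, edgeR, adjusted p = 0.058). Without tissue 1-1 it was called lower, with a log2 fold change of −0.46 (edgeR, adjusted p = 2.8e-05).

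In upper glycolysis, 5 of 8 listed genes fell and 1 rose. *HK2* encodes the hexokinase that is enriched in muscle and inducible in other cells. Levels of *HK2* were 29.8, 29.3 and 29.0 FPKM-UQ in tissues 3-1 to 3-3, against 38.0, 97.3, 69.2, 65.6 and 75.1 in tissues 1-1 to 1-5. All week 3 tissues were below all week 1 tissues, and tissue 1-1 was the nearest to them. The log2 fold change of *HK2* was −1.25 (edgeR, standard error 0.22, adjusted p = 0.002). *HK1*, the hexokinase of most cell types, averaged 416.3 ± 8.90 FPKM-UQ (SD) in the 3 week 3 tissues and 431.4 ± 31.0 in the 5 week 1 tissues and was not called (log2 fold change −0.07, standard error 0.07, edgeR, adjusted p = 0.55). *GPI*, which encodes the isomerase of glucose 6-phosphate, is one of the members in which tissue 1-1 was close to the rest of its week. Normalized expression of *GPI* was 817.3, 816.1 and 809.2 FPKM-UQ in tissues 3-1 to 3-3, against 1249.2, 1716.1, 1271.2, 1285.8 and 1391.9 in tissues 1-1 to 1-5. The weeks were separated by a gap wider than the whole range of week 3, and *GPI* fell with a log2 fold change of −0.78 (edgeR, standard error 0.10, adjusted p = 0.00027).

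Of the 3 phosphofructokinase genes, 1 fell, 1 rose and 1 was not called. *PFKM* encodes the muscle subunit of this rate-limiting enzyme. *PFKM* was at 530.4, 522.6 and 535.7 FPKM-UQ in tissues 3-1 to 3-3, against 590.8, 826.6, 648.0, 618.5 and 758.9 in tissues 1-1 to 1-5. The groups did not overlap, and *PFKM* fell (log2 fold change −0.39, standard error 0.11, edgeR, adjusted p = 0.019). Without tissue 3-1, 3-2 or 3-3, its adjusted p was 0.07, 0.079 and 0.07 (edgeR). *PFKL*, the liver-type subunit, went the other way. Levels of *PFKL* were 34.6, 38.2 and 40.9 FPKM-UQ in tissues 3-1 to 3-3, against 19.8, 26.1, 26.5, 30.0 and 28.6 in tissues 1-1 to 1-5. All week 3 tissues were above all week 1 tissues, and *PFKL* rose (log2 fold change 0.52, standard error 0.12, edgeR, adjusted p = 0.0077). *PFKP*, the platelet-type subunit, averaged 157.2 ± 3.68 FPKM-UQ (SD) in the 3 week 3 tissues and 149.5 ± 16.7 in the 5 week 1 tissues and was not called (log2 fold change 0.06, standard error 0.09, edgeR, adjusted p = 0.68).

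Aldolase splits fructose 1,6-bisphosphate, and triosephosphate isomerase interconverts the products. *ALDOC* is the aldolase paralog best known from brain in mammals. Normalized expression of *ALDOC* was 885.8, 846.9 and 893.7 FPKM-UQ in tissues 3-1 to 3-3, against 952.7, 1828.5, 1479.8, 1486.0 and 1657.5 in tissues 1-1 to 1-5. Tissue 1-1 was the lowest of week 1 and still above week 3, and *ALDOC* fell with a log2 fold change of −0.77 (edgeR, standard error 0.16, adjusted p = 0.005). *TPI1* encodes the isomerase. *TPI1* was at 698.4, 690.5 and 698.2 FPKM-UQ in tissues 3-1 to 3-3, against 965.8, 1834.1, 1328.2, 1422.4 and 1499.5 in tissues 1-1 to 1-5. Every week 3 tissue was below every week 1 tissue, and *TPI1* fell with a log2 fold change of −1.03 (edgeR, standard error 0.16, adjusted p = 0.00067). The 3 week 3 tissues differed from each other by a coefficient of variation of 0.648% for *TPI1*. Among the 5 week 1 tissues it was 22.2%, and among tissues 1-2 to 1-5 it was 14.5%.

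In lower glycolysis, 7 genes were named, 4 were found by symbol, and all 4 fell. *ENO3* and *PGAM2*, further paralogs of enolase and phosphoglycerate mutase, are not analysed here. The 4 genes therefore do not give the total expression of these steps. *GAPDH* encodes the dehydrogenase that opens this stretch of the pathway and lies on chromosome 1 from 77619214 to 77623351 in the authors' count table, whose processing notes name the build GRCg6a. Levels of *GAPDH* were 8750.5, 8746.0 and 8927.5 FPKM-UQ in tissues 3-1 to 3-3, against 12935.6, 23786.3, 18543.0, 21245.0 and 22293.3 in tissues 1-1 to 1-5. The groups did not overlap, and mean expression at week 3 was 55.4% lower. Its log2 fold change was −1.18 (edgeR, standard error 0.16, adjusted p = 0.00035). *PGAM1* encodes phosphoglycerate mutase. Normalized expression of *PGAM1* was 1476.3, 1476.3 and 1524.5 FPKM-UQ in tissues 3-1 to 3-3, against 2003.3, 4332.4, 3246.1, 3890.0 and 3951.8 in tissues 1-1 to 1-5. Week 3 tissues were nearly equal and below every week 1 tissue, and *PGAM1* fell with a log2 fold change of −1.24 (edgeR, standard error 0.20, adjusted p = 0.00091).

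*ENO1* and *ENO2* encode enolases, *ENO1* the widespread form and *ENO2* the form best known from neurons. *ENO1* was at 2353.5, 2361.6 and 2317.2 FPKM-UQ in tissues 3-1 to 3-3, against 2345.7, 4487.4, 3856.6, 4207.3 and 4182.0 in tissues 1-1 to 1-5. Tissue 1-1 lay within the range of week 3, and the other week 1 tissues were all above it. *ENO1* had a log2 fold change of −0.72 (edgeR, standard error 0.17, adjusted p = 0.0089), and without tissue 1-1 it was −0.85 (edgeR, adjusted p = 1.6e-11). Levels of *ENO2* were 14.0, 12.6 and 11.7 FPKM-UQ in tissues 3-1 to 3-3, against 8.11, 40.3, 28.8, 27.8 and 30.7 in tissues 1-1 to 1-5. Here tissue 1-1 was below all week 3 tissues while tissues 1-2 to 1-5 were above them. *ENO2* was just past the threshold (log2 fold change −1.10, standard error 0.36, edgeR, adjusted p = 0.045), and without any single tissue other than 1-1 it was not, with adjusted p-values of 0.08 to 0.15 (edgeR). Without tissue 1-1, its log2 fold change was −1.33 (edgeR, adjusted p = 5.9e-09). *TPI1* and *ENO2* are neighbors on chromosome 1, separated by 9.21 kb, and *GAPDH* lies 317 kb from *TPI1*.

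The remaining enzymes of this stretch, matched by synonym, were also lower. *PGK2* carries the synonym *PGK1*, phosphoglycerate kinase. Normalized expression of *PGK2* was 508.9, 522.2 and 518.8 FPKM-UQ in tissues 3-1 to 3-3, against 596.3, 1080.4, 832.9, 894.5 and 871.6 in tissues 1-1 to 1-5. *PKLR* lists *PKM*, pyruvate kinase, among its synonyms. *PKLR* was at 1931.4, 1852.7 and 1888.3 FPKM-UQ in tissues 3-1 to 3-3, against 2156.2, 3918.2, 2793.7, 3098.0 and 3310.4 in tissues 1-1 to 1-5. For both genes all week 3 tissues were below all week 1 tissues, with log2 fold changes of −0.74 for *PGK2* (standard error 0.14, edgeR, adjusted p = 0.0032) and −0.71 for *PKLR* (standard error 0.15, edgeR, adjusted p = 0.0052).

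**Figure D2:**
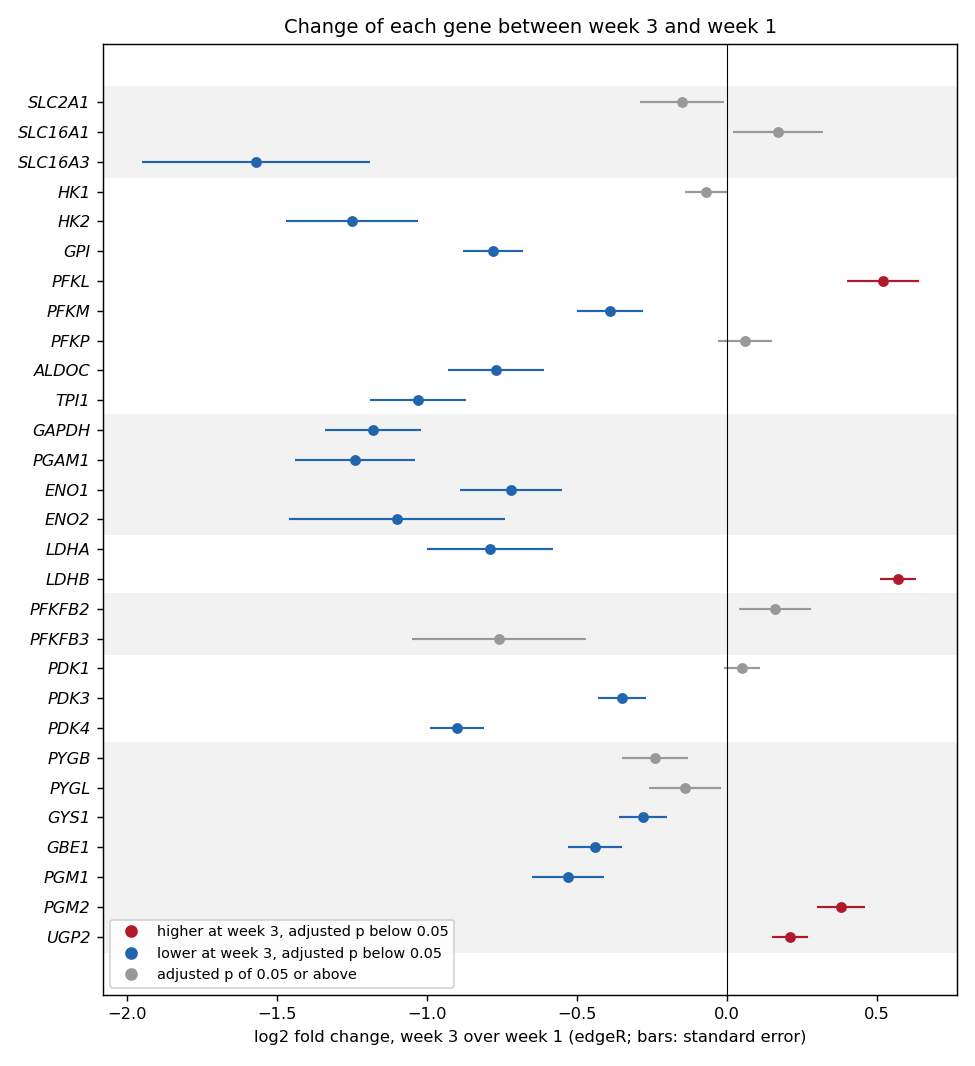
Log2 fold change of each of the 29 tested genes, week 3 over week 1, from edgeR (x axis; bars are the standard error), grouped by pathway step in shaded bands (y axis), with blue for genes lower and red for genes higher at an adjusted p below 0.05 and grey for genes not called. Fold changes ran from −1.57 for *SLC16A3* to 0.57 for *LDHB*.

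The lactate dehydrogenase paralogs moved in opposite directions. *LDHA* encodes the subunit that predominates in fast glycolytic muscle. Levels of *LDHA* were 848.8, 858.9 and 820.4 FPKM-UQ in tissues 3-1 to 3-3, against 810.7, 2016.6, 1429.5, 1401.4 and 1569.5 in tissues 1-1 to 1-5. Tissue 1-1 was below the week 3 tissues and the other week 1 tissues were far above them, so the groups overlapped. *LDHA* fell with a log2 fold change of −0.79 (edgeR, standard error 0.21, adjusted p = 0.018), and without tissue 1-1 this was −0.94 (edgeR, adjusted p = 7.7e-09). Without tissue 3-1, 3-2 or 3-3, its adjusted p was 0.067, 0.065 and 0.075 (edgeR). *LDHB* encodes the subunit that predominates in heart and slow muscle. Normalized expression of *LDHB* was 553.1, 570.7 and 584.1 FPKM-UQ in tissues 3-1 to 3-3, against 363.4, 385.2, 385.1, 396.8 and 372.4 in tissues 1-1 to 1-5. The lowest week 3 tissue exceeded the highest week 1 tissue, and tissue 1-1 was close to the rest of its week. *LDHB* rose with a log2 fold change of 0.57 (edgeR, standard error 0.06, adjusted p = 4.4e-05), and the 8 fits that omitted 1 tissue gave log2 fold changes of 0.55 to 0.58. *LDHB* and *GYS2* are separated by 7.81 kb on chromosome 1.

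**Figure D3:**
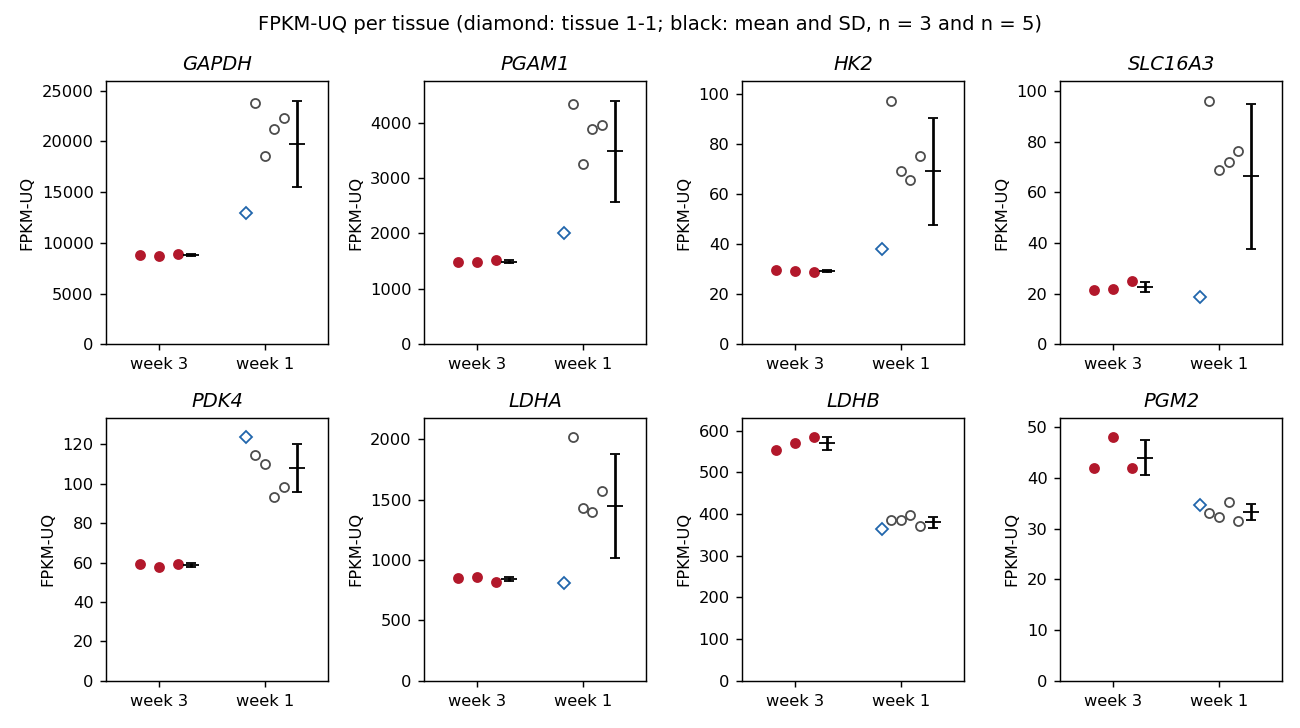
FPKM-UQ (y axis, from 0) of 8 genes in the 3 week 3 tissues (filled circles) and the 5 week 1 tissues (open symbols, with tissue 1-1 as a diamond), with the mean and SD of each week in black. *GAPDH*, *PGAM1*, *HK2* and *PDK4* do not overlap between the weeks, tissue 1-1 is beside week 3 for *SLC16A3* and *LDHA*, and *LDHB* and *PGM2* are higher in all week 3 tissues.

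The bifunctional PFKFB enzymes make and degrade fructose 2,6-bisphosphate, an activator of phosphofructokinase. Neither of the 2 listed members was called. *PFKFB3*, a paralog with high kinase activity, had the widest spread at week 1 among members not called. *PFKFB3* was at 27.2, 23.1 and 24.2 FPKM-UQ in tissues 3-1 to 3-3, against 17.7, 63.9, 37.4, 45.0 and 44.8 in tissues 1-1 to 1-5. Week 3 tissues were below tissues 1-2 to 1-5 and above tissue 1-1. The log2 fold change of *PFKFB3* was −0.76 (edgeR, standard error 0.29, adjusted p = 0.08), and without tissue 1-1 it was −0.95 (edgeR, adjusted p = 1.7e-06). *PFKFB2* averaged 11.2 ± 1.32 FPKM-UQ (SD) in the 3 week 3 tissues and 9.88 ± 0.597 in the 5 week 1 tissues (log2 fold change 0.16, standard error 0.12, edgeR, adjusted p = 0.37).

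Of the pyruvate dehydrogenase kinases, 2 of 3 fell. *PDK4*, the kinase known to be induced by fasting and fatty acids, showed the opposite position of tissue 1-1. Levels of *PDK4* were 59.2, 57.5 and 59.1 FPKM-UQ in tissues 3-1 to 3-3, against 123.5, 114.4, 109.8, 93.3 and 98.4 in tissues 1-1 to 1-5. Tissue 1-1 was the highest of all tissues, and all week 3 tissues were below all week 1 tissues. *PDK4* fell with a log2 fold change of −0.90 (edgeR, standard error 0.09, adjusted p = 5.4e-05). *PDK3* fell less. Normalized expression of *PDK3* was 71.6, 66.1 and 66.1 FPKM-UQ in tissues 3-1 to 3-3, against 75.4, 97.5, 85.3, 88.4 and 81.9 in tissues 1-1 to 1-5. The groups did not overlap (log2 fold change −0.35, standard error 0.08, edgeR, adjusted p = 0.01), but without tissue 3-2 or 3-3 the adjusted p of *PDK3* was 0.056 and 0.058 (edgeR). *PDK1* averaged 94.5 ± 1.93 FPKM-UQ (SD) in the 3 week 3 tissues and 90.6 ± 4.01 in the 5 week 1 tissues and was not called (log2 fold change 0.05, standard error 0.06, edgeR, adjusted p = 0.65).

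Log2 fold changes of the glycogen enzymes ran from −0.53 to 0.38. Of 7 tested, 3 fell and 2 rose. *PGM1* encodes the main phosphoglucomutase, which links glucose 6-phosphate to glycogen. *PGM1* was at 237.6, 255.0 and 252.2 FPKM-UQ in tissues 3-1 to 3-3, against 289.3, 440.6, 325.2, 339.4 and 378.2 in tissues 1-1 to 1-5. The groups did not overlap, and *PGM1* fell (log2 fold change −0.53, standard error 0.12, edgeR, adjusted p = 0.0063). *PGM2*, a paralog that acts mainly on pentose phosphates in mammals, rose. Levels of *PGM2* were 41.9, 48.0 and 41.9 FPKM-UQ in tissues 3-1 to 3-3, against 34.6, 33.1, 32.2, 35.3 and 31.5 in tissues 1-1 to 1-5. The weeks were separated, with week 3 higher (log2 fold change 0.38, standard error 0.08, edgeR, adjusted p = 0.004).

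*UGP2* encodes the enzyme that makes UDP-glucose, the donor for glycogen synthesis. Normalized expression of *UGP2* was 378.6, 359.8 and 366.9 FPKM-UQ in tissues 3-1 to 3-3, against 335.0, 302.0, 323.9, 312.1 and 300.2 in tissues 1-1 to 1-5. The weeks did not overlap and the difference was small (log2 fold change 0.21, standard error 0.06, edgeR, adjusted p = 0.03). Without any single tissue other than 1-1, the adjusted p of *UGP2* was between 0.053 and 0.14 (edgeR). *GYS1*, muscle-type glycogen synthase, was lower at week 3. *GYS1* was at 176.2, 167.7 and 180.2 FPKM-UQ in tissues 3-1 to 3-3, against 195.2, 239.0, 200.6, 191.1 and 225.3 in tissues 1-1 to 1-5. The groups were separated by less than the range of week 1 (log2 fold change −0.28, standard error 0.08, edgeR, adjusted p = 0.03). Without tissue 1-2, 1-5, 3-1, 3-2 or 3-3, the adjusted p of *GYS1* was 0.055, 0.061, 0.091, 0.13 and 0.08 (edgeR). *GBE1* encodes the branching enzyme. Levels of *GBE1* were 81.1, 76.2 and 72.1 FPKM-UQ in tissues 3-1 to 3-3, against 98.6, 103.1, 121.4, 91.4 and 97.4 in tissues 1-1 to 1-5. All week 3 tissues were below all week 1 tissues, and *GBE1* fell with a log2 fold change of −0.44 (edgeR, standard error 0.09, adjusted p = 0.0054).

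Of the glycogen phosphorylases, *PYGB* and *PYGL* were tested and not called, and the muscle form *PYGM* is not analysed here. *PYGB*, the brain form, averaged 10.6 ± 0.745 FPKM-UQ (SD) in the 3 week 3 tissues and 12.3 ± 0.936 in the 5 week 1 tissues (log2 fold change −0.24, standard error 0.11, edgeR, adjusted p = 0.15). *PYGL*, the liver form, is annotated as a pseudogene in the count table and averaged 42.1 ± 1.86 FPKM-UQ (SD) in the 3 week 3 tissues and 46.0 ± 7.24 in the 5 week 1 tissues (log2 fold change −0.14, standard error 0.12, edgeR, adjusted p = 0.43). Without tissue 1-1, *PYGL* had a log2 fold change of −0.23 (edgeR, adjusted p = 0.013). *GYS2*, liver-type glycogen synthase, was at or near the floor of 3 counts. It had 8, 0 and 3 counts in tissues 3-1 to 3-3, against 2, 0, 0, 3 and 2 counts in tissues 1-1 to 1-5, and it did not pass the filter.

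Within families of paralogs, the share of the counts shifted between the weeks. These shares are not corrected for length, so they are read across tissues only. *LDHB* held 39.5%, 39.9% and 41.6% of *LDHA* and *LDHB* counts in tissues 3-1 to 3-3, against 30.9%, 16.0%, 21.2%, 22.1% and 19.2% in tissues 1-1 to 1-5. Tissue 1-1 lay between the other week 1 tissues and week 3, and the weeks did not overlap. *SLC16A3* held 16.1%, 16.8% and 18.7% of *SLC16A1* and *SLC16A3* counts at week 3, against 23.7%, 46.8%, 41.3%, 40.5% and 42.1% at week 1, again with tissue 1-1 nearest to week 3. *HK2* held 6.52%, 6.63% and 6.57% of *HK1* and *HK2* counts at week 3, against 8.57%, 16.8%, 14.4%, 13.4% and 14.6% at week 1. *PFKM* held 72.6% to 73.8% at week 3 and 75.7% to 81.5% at week 1 of *PFKL*, *PFKM* and *PFKP* counts. *PDK4* held 26.4% to 26.6% at week 3 and 34.1% to 42.0% at week 1 of *PDK1*, *PDK3* and *PDK4* counts, without *PDK2*. *PGM2* held 14.2% to 15.8% at week 3 and 6.97% to 10.7% at week 1 of *PGM1* and *PGM2* counts, without *PGM5* and *PGM2L1*. Shares within *ENO1* and *ENO2*, *PFKFB2* and *PFKFB3*, and *PYGB* and *PYGL* overlapped between the weeks.

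**Figure D4:**
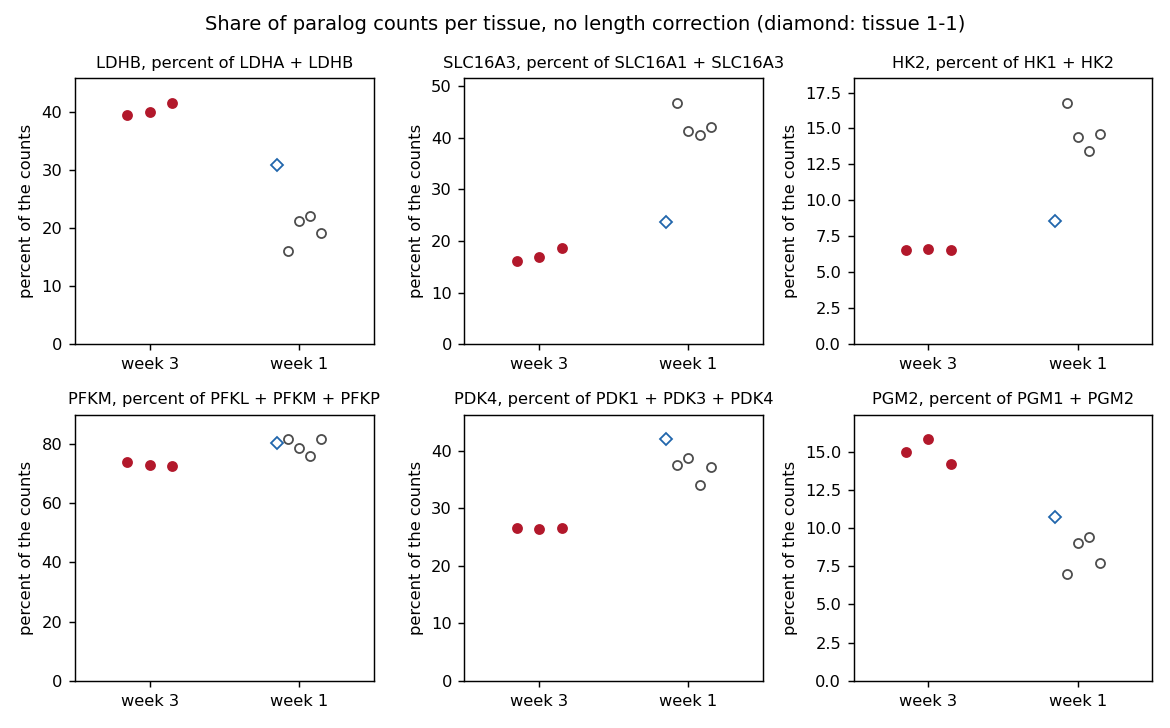
Percent of the counts of the paralogs named above each panel held by 1 of them (y axis, from 0) in the 3 week 3 tissues (filled circles) and the 5 week 1 tissues (open symbols, with tissue 1-1 as a diamond). In each of the 6 panels the weeks do not overlap, with *LDHB* and *PGM2* higher and *SLC16A3*, *HK2*, *PFKM* and *PDK4* lower at week 3.

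The spread among week 1 tissues followed a pattern in these genes. Tissue 1-1 was the lowest week 1 tissue for 22 of 29 members, against 34.6% of all tested genes, and the highest for 3, against 32.0%. Tissue 1-2 was the highest for 20 of 29 members, against 17.4% of all tested genes. Relative to the mean of tissues 1-2 to 1-5, tissue 1-1 was at 24.0% for *SLC16A3*, 25.4% for *ENO2*, 36.9% for *PFKFB3*, 49.5% for *HK2* and 50.5% for *LDHA*. It was at 88.2% for *GPI*, 94.4% for *LDHB* and 119% for *PDK4*. Of the 16 members called lower, tissue 1-1 lay within or below the range of week 3 for 4, namely *SLC16A3*, *ENO1*, *ENO2* and *LDHA*. The median coefficient of variation over the members was 2.73% at week 3 and 14.9% at week 1, or 9.44% among tissues 1-2 to 1-5. Over all tested genes it was 7.70% at week 3 and 13.8% at week 1, or 9.57% among tissues 1-2 to 1-5.

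Without tissue 1-1, edgeR called 19 members lower and 4 higher at week 3, against 19.5% and 19.1% of all tested genes in that fit. The 3 members called in addition were *PFKFB3*, *SLC2A1* and *PYGL*, and none of the 20 was lost. The number called was lowest without tissue 3-2, at 13, of which 10 were lower. In that fit, 2133 of 14607 genes were called, 48.9% of these higher. Of the 20 members called, 13 were called in each of the 8 fits that left out 1 tissue, and the other 7 were *ENO2*, *GYS1*, *LDHA*, *PDK3*, *PFKM*, *SLC16A3* and *UGP2*.

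**Figure D5:**
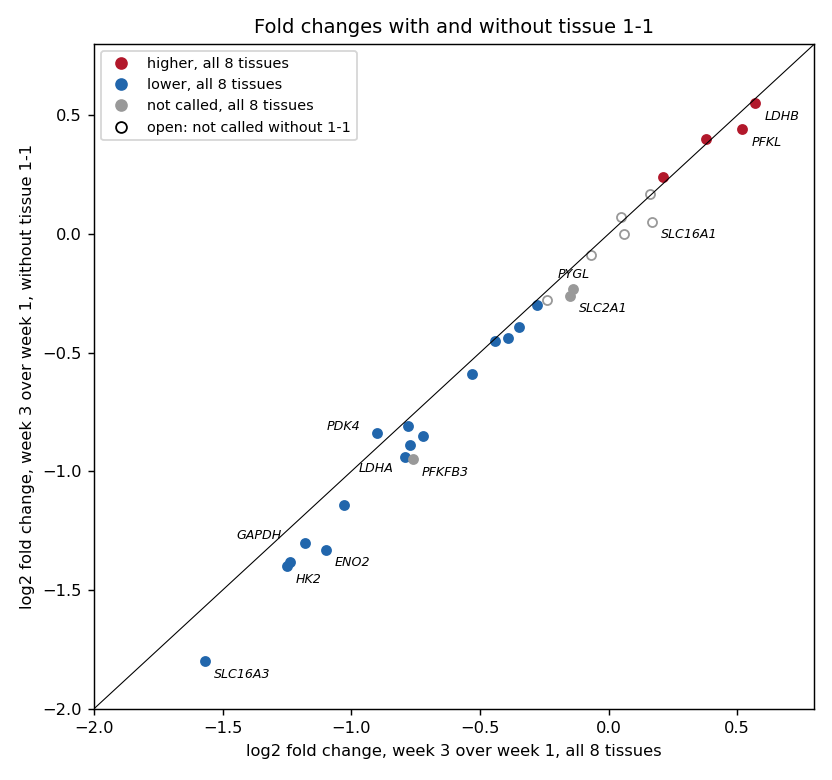
Log2 fold change (week 3 over week 1, edgeR) of each of the 29 genes with all 8 tissues (x axis) and without tissue 1-1 (y axis), with the line of equality, filled symbols for genes called without tissue 1-1 and colors for the call with all 8 tissues. Most genes that were lower lie below the line, such as *SLC16A3* at −1.57 with and −1.80 without tissue 1-1, whereas *PDK4* lies above it at −0.90 and −0.84.

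Other genes of the same pathways, listed by name, were read in the same fit. They include *PKLR*, already given above for *PKM*. Synonym matches were counted here, such as *MPC1L* for *MPC1* and *PDHA2* for *PDHA1*. Of 76 tested, 17 (22.4%) were lower and 9 (11.8%) were higher at week 3, against 12.0% and 11.5% of all tested genes, with a median log2 fold change of −0.12. Without tissue 1-1, 29 (38.2%) were lower and 13 (17.1%) higher, against 19.5% and 19.1% of all tested genes. Without tissue 3-1, 13 were lower and 4 higher, where 2181 of 14603 genes were called, 47.4% of these higher. Without tissue 3-2, 14 were lower and 5 higher, where 2133 of 14607 genes were called, 48.9% of these higher. Of the 26 called, 15 were called in each of the 8 fits that left out 1 tissue. The other 11 were *SLC25A13*, called in 1 of the 8 fits, *PDHX* in 4, *SP1* and *PHKB* in 5 each, *G6PC3*, *PGM5*, *STBD1* and *TALDO1* in 6 each, and *MYC*, *MLXIP* and *PPARGC1A* in 7 each, with adjusted p-values of at most 0.16 in the fits where they were lost (edgeR). For the mitochondrial glycerol phosphate shuttle, *GPD2* was at 115.8, 107.3 and 106.9 FPKM-UQ in tissues 3-1 to 3-3, against 277.1, 307.4, 235.5, 246.3 and 249.3 in tissues 1-1 to 1-5 (log2 fold change −1.27, standard error 0.09, edgeR, adjusted p = 5.5e-06). The groups were far apart, and the cytosolic partner *GPD1* was lower as well, at a low level (log2 fold change −2.33, standard error 0.44, edgeR, adjusted p = 0.0026). *SLC25A12*, an aspartate and glutamate carrier, was lower (log2 fold change −0.44, standard error 0.10, edgeR, adjusted p = 0.0064) and its paralog *SLC25A13* higher (log2 fold change 0.35, standard error 0.11, edgeR, adjusted p = 0.04). Of 9 NADH shuttle genes tested, 3 (33.3%) were lower and 1 (11.1%) was higher. Without tissue 1-1, 6 (66.7%) were lower and 2 (22.2%) were higher.

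Among 17 other glycogen genes tested, 4 (23.5%) were lower and 3 (17.6%) higher, against 12.0% and 11.5% of all tested genes. Without tissue 1-1, 7 (41.2%) were lower and 3 (17.6%) higher, against 19.5% and 19.1% of all tested genes. *PPP1R3A* and *PPP1R3B* encode subunits that target protein phosphatase 1 to glycogen, the first best known from muscle and *PPP1R3B* from liver. *PPP1R3A* was at 69.7, 73.6 and 74.7 FPKM-UQ in tissues 3-1 to 3-3, against 143.0, 152.7, 105.2, 125.9 and 117.1 in tissues 1-1 to 1-5 (log2 fold change −0.84, standard error 0.11, edgeR, adjusted p = 0.0003). *PPP1R3B* was at 31.8, 27.6 and 28.1 FPKM-UQ in tissues 3-1 to 3-3, against 20.6, 10.3, 12.5, 15.6 and 13.8 in tissues 1-1 to 1-5 (log2 fold change 0.99, standard error 0.17, edgeR, adjusted p = 0.0018). Neither gene overlapped between the weeks, and they moved in opposite directions. *PHKA1*, a phosphorylase kinase subunit, was lower (log2 fold change −0.45, standard error 0.10, edgeR, adjusted p = 0.0084). *PGM5* (log2 fold change 0.36, standard error 0.09, edgeR, adjusted p = 0.011) and *STBD1* (log2 fold change 0.34, standard error 0.09, edgeR, adjusted p = 0.016) were higher. *PGM5* was listed as a paralog of *PGM1*, and whether it takes part in glycogen turnover was not examined.

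At the entry of pyruvate into mitochondria, 1 of 11 genes tested was higher (9.09%) and 2 were lower (18.2%) with all tissues. These shares were near the 11.5% and 12.0% of all tested genes. Without tissue 1-1, 1 was higher (9.09%) and 4 were lower (36.4%), against 19.1% and 19.5% of all tested genes in that fit. *PDK2*, another pyruvate dehydrogenase kinase, was at 40.6, 41.1 and 39.0 FPKM-UQ in tissues 3-1 to 3-3, against 22.0, 26.3, 25.7, 26.3 and 33.4 in tissues 1-1 to 1-5 (log2 fold change 0.58, standard error 0.11, edgeR, adjusted p = 0.003). It rose without overlap, whereas *PDK3* and *PDK4* fell. *DLAT* (log2 fold change −0.32, standard error 0.06, edgeR, adjusted p = 0.0032) and *PDHX* (log2 fold change −0.27, standard error 0.08, edgeR, adjusted p = 0.028), which encode parts of the pyruvate dehydrogenase complex, were lower. Among 8 other glycolytic genes tested, *PKLR* and *ADPGK* (log2 fold change −0.54, standard error 0.10, edgeR, adjusted p = 0.0026) were lower. As shares of that list, 25.0% were lower and 12.5% higher with all tissues, and 37.5% and 12.5% without tissue 1-1. Of 12 other carriers tested, *SLC2A6* (log2 fold change −2.17, standard error 0.37, edgeR, adjusted p = 0.0014) and *SLC2A5* (log2 fold change −0.56, standard error 0.12, edgeR, adjusted p = 0.0063) were lower. *SLC2A6* was at a low level, 0.619 to 1.14 FPKM-UQ at week 3 and 2.48 to 6.22 at week 1. Of the 12 carriers, 16.7% were lower and 0.0% higher with all tissues, and 25.0% and 8.33% without tissue 1-1. *TALDO1* was the 1 gene called among 5 of the pentose phosphate pathway (log2 fold change 0.26, standard error 0.07, edgeR, adjusted p = 0.017), and *G6PC3* the 1 gene called among 4 of gluconeogenesis (log2 fold change 0.30, standard error 0.08, edgeR, adjusted p = 0.014), both higher at week 3. Each was 1 gene of a short list, at 20.0% and 25.0%. Without tissue 1-1, 1 gluconeogenesis gene was also lower, and the pentose phosphate counts were as with it.

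Of 10 regulators tested, 4 (40.0%) were lower and 1 (10.0%) was higher at week 3, against 12.0% and 11.5% of all tested genes. Leaving out tissue 1-1 gave 5 of the 10 lower and 3 higher, against 19.5% and 19.1% of all tested genes in that fit. *EGLN3* encodes a prolyl hydroxylase that is itself a known target of hypoxia-inducible factors. It was at 7.43, 8.72 and 8.15 FPKM-UQ in tissues 3-1 to 3-3, against 14.7, 42.9, 28.8, 30.4 and 34.0 in tissues 1-1 to 1-5 (log2 fold change −1.92, standard error 0.27, edgeR, adjusted p = 0.00045). Tissue 1-1 was the lowest of week 1, and the weeks did not overlap. *HIF1A* itself was at 164.5, 155.1 and 138.8 FPKM-UQ in tissues 3-1 to 3-3, against 139.3, 121.4, 133.0, 146.1 and 123.4 in tissues 1-1 to 1-5, and was not called (log2 fold change 0.19, standard error 0.08, edgeR, adjusted p = 0.12), although without tissue 1-1 its log2 fold change was 0.21 (edgeR, adjusted p = 0.014). *PPARGC1A*, a coactivator of mitochondrial genes (log2 fold change −0.65, standard error 0.16, edgeR, adjusted p = 0.012), and the transcription factor *SP1* (log2 fold change −0.36, standard error 0.10, edgeR, adjusted p = 0.019) were lower, and *MYC* was higher (log2 fold change 0.36, standard error 0.09, edgeR, adjusted p = 0.015).

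Markers of other cell types moved between the same tissues, and their part in the results above was not tested. Beside the marker counts below, 12.0% of all tested genes were called lower and 11.5% higher. Without tissue 1-1, these all-gene shares were 19.5% and 19.1%. Macrophage and leukocyte markers summed to 38.8 to 41.8 FPKM-UQ at week 3 and 86.7 to 142.6 at week 1, and 6 of 7 tested were lower. The 6 smooth muscle and pericyte markers summed to 3214.3 to 3256.5 FPKM-UQ at week 3 and 733.8 to 950.9 at week 1, with *TAGLN* and *ACTA2* higher and *PDGFRB* lower. *MYH11*, the defining smooth muscle myosin, was at 2.89 to 4.61 FPKM-UQ at week 3 and 1.81 to 4.18 at week 1 and was not called. Fibroblast markers summed to 22855.4 to 23536.9 FPKM-UQ at week 3 and 20312.0 to 31562.8 at week 1, with 4 of 9 lower and 1 higher. Without tissue 1-1, 7 fibroblast markers were lower and 2 higher, and the counts for the other 2 of these lists were as with it. Tissue 1-1 had the lowest sum of week 1 for myotube, fibroblast, macrophage and leukocyte, adipocyte and proliferation markers, and the highest for Schwann and neural, cartilage and erythroid markers. Of the other lists, 1 of 5 endothelial, 1 of 4 Schwann and neural, 1 of 1 erythroid and 2 of 5 cartilage markers tested were lower, 2 of 5 adipocyte markers were higher, and the 6 proliferation markers, with log2 fold changes of −0.27 to 0.29, were not called (edgeR). Without tissue 1-1, 3 cartilage markers were lower and 1 higher, 3 adipocyte markers and 1 Schwann and neural marker were higher, and 1 proliferation marker was lower (edgeR).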

How the data were processed

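Total RNA was extracted with TRIzol from 3 week 3 and 5 week 1 tissues and sequenced on an Illumina NovaSeq instrument. The authors deposited estimated counts per gene, not normalized, and a signal table called FPKM-UQ. Processing notes of the submitters name STAR 2.7.3a, Partek and the builds galGal6 and GRCg6a, whereas the quantifier and the strand setting are not given in the sources used here. Across 15392 genes, FPKM-UQ equaled the estimated count plus 1 over 1 factor per tissue, with a largest deviation of 0.000787%, and 81.18% of the estimated counts were whole within a tolerance of 1e-06. A gene that shares reads with a paralog could have received a part of them.

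Estimated counts were rounded and tested in edgeR 4.0.16 under R 4.3.3 (TMM, filterByExpr, quasi-likelihood test, Benjamini-Hochberg over 14311 genes), with a call at an adjusted p below 0.05. The commercial gene-specific analysis of the study was not used here. The script was tested on simulated data. Upper-quartile factors, no filter, a minimum of 10 counts, DESeq2 1.42.0, limma 3.58.1 on log2(FPKM-UQ + 1) and on log2(FPKM-UQ + 0.1), a mean FPKM-UQ of at least 1, a replicate block and leaving out each tissue were alternatives.

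The members and all gene lists were chosen with earlier results of these data known. Per-tissue values are given for every member called. Of the other pathway genes, up to 3 higher and 3 lower per list with the largest changes are named, except that some are not reported here, and *HIF1A*, *PHKB*, *MLXIP* and the markers singled out were named after their values were seen. Shares within paralog families had been planned per coding length, and were computed from counts without length.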

Additional observations from a re-analysis of the deposited data

Results flagged for a closer look

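For *SLC2A1*, tissue 1-1 was at 58.8 FPKM-UQ, whereas the other 4 week 1 tissues were at 88.7 to 98.5. Its gap to the nearest tissue was 0.752 of the range of week 1, above the critical value of Dixon's test for 5 samples. For *SLC16A1*, tissue 1-1 was at 60.6 FPKM-UQ, whereas the other week 1 tissues were at 97.6 to 109.4, with a gap of 0.758 of the range. These were 2 of 29 genes examined. Over all tested genes 10.7% had such a gap at week 1, and chance gives it in about 5% of groups. The cause was not tested.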

How the results depend on the processing

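No member changed direction under any of up to 16 alternatives, and 12 of the 20 members called were called under each of them. With upper-quartile factors, without a filter and with a minimum of 10 counts, all 29 calls were as in the main analysis. DESeq2 and the 3 limma fits called 19 members, without *ENO2*. Requiring a fold change above 1.5 left 11 members, 0 higher. Leaving out 1 tissue at a time gave 13 to 23 members called, of which 3 to 4 were higher and 10 to 19 lower, 2119 to 5498 calls among all genes (3367 with all tissues), and 17 to 42 other pathway genes called, of which 4 to 13 were higher and 13 to 29 lower. The week 3 minus week 1 difference in the share of *LDHB*, 18.4 percentage points, ranged from 17.0 to 20.7.

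Same-numbered tissues did not deviate together (correlations of 0.07, −0.01 and 0.01 across 13394 genes), so replicate numbers were taken as names only. With a replicate block, which leaves fewer degrees of freedom, 2073 of all genes, 12 members (9 lower), and 19 other pathway genes (3 higher, 16 lower) were called, and not every tissue correlated best with its own number. Each member tested had 123 counts or more in every tissue, whereas *GYS2* had 0 to 8 counts. Whether a greater depth would have allowed a test of *GYS2* was not examined.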
